A study of Mus musculus with 7 samples.

Results

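The cytoplasmic ribosomal protein genes of mouse heart group 2 innate lymphoid cells (ILC2s) were examined in 3 libraries from naive hearts and 4 libraries from heart allografts. Members were the identifiers of the gene count table whose symbol begins with Rpl or Rps followed by a number, with or without a closing letter or copy number, together with Rplp0, Rplp1, Rplp2 and Rpsa. Symbols marked as pseudogenes and the Rps6k kinases were left out. The rule found 88 of the 55335 identifiers, 52 named for the large subunit and 36 for the small subunit. In the GENCODE M21 annotation 83 of them were protein coding, 4 were processed pseudogenes (Rpl6l, Rps3a2, Rps3a3 and Rps12l1) and 1 was a transcribed processed pseudogene (Rps4l). Every library was a pool of ILC2s from 4 to 7 hearts, sorted as CD45+, lineage-negative, ST2+ cells and sequenced after full-length cDNA amplification. The allografts were Balb/C hearts placed in C57BL/6 recipients without a stated treatment, a model that ends in acute rejection, and were taken 7 days after surgery. The naive hearts were not transplanted; their labels also read 7 days, and the labels give no strain for them and no genotype, sex or age for either group. The comparison asked how the transcriptome of graft-infiltrating ILC2s differs from that of ILC2s of the naive heart.

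Ribosomes translate mRNA in a small subunit, which holds the mRNA and reads its codons, and a large subunit, which joins amino acids. Each subunit is a scaffold of ribosomal RNA covered by proteins that are needed in near equal numbers. In mammals most of their mRNAs begin with a C followed by a run of pyrimidines, the 5' terminal oligopyrimidine (TOP) tract, through which mTOR signalling and the RNA-binding protein Larp1 set their translation. Lymphocytes that leave rest and begin to divide make more ribosomes.

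Total counts ran from 29107326 to 53044907 per library. Genes with any count numbered 15820, 20254 and 13864 in naive replicates 1, 2 and 3 and 19235 to 21354 in the allografts. The part of this difference in the values without naive replicate 2 was not tested. The library labelled naive replicate 2 went against its label. Its 15 ILC2 markers, among them the transcription factor gene Gata3 and the ST2 gene Il1rl1, summed to 257 CPM (counts scaled to the library total), against 7933 and 8941 CPM in the other naive libraries and 8160 to 8555 CPM in the allografts. Gata3 was at 34.8 CPM there and at 654 CPM or more in the other libraries, and Il1rl1 was at 6.79 CPM against 343 CPM or more. All 10 kidney tubule markers were detected in it, with a sum of 10889 CPM against 71.7 to 318 CPM elsewhere, and 26.5% of its counts were mitochondrially encoded against 2.04% to 3.11%. Its endothelial sum of 206.5 CPM (6.97 to 46.4 elsewhere) and erythroid sum of 2937 CPM (468 to 786 elsewhere) were the highest. Heart muscle markers summed to at most 9.22 CPM in any library, with Tnnt2, Myl2 and Ryr2 at 0 in all of them. T cell markers summed to 115 and 238 CPM in naive replicates 1 and 3 and to 273 to 336 CPM in the allografts. B cell markers summed to 117, 5.56 and 0 CPM in naive replicates 1, 2 and 3 and to 122 to 192 CPM in the allografts, and myeloid markers to 2.49, 244 and 443 CPM against 183 to 285 CPM. The part of these markers in the differences between groups, and between naive replicates 1 and 3, was not tested. Below, the value of each library is shown, and fitted values are given with and without naive replicate 2 where a difference is described.

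The tract that marks this gene family was looked for at the annotated transcription starts. RefSeq promoter windows of build GRCm38.p6, which reach 250 bases before to 50 bases after each annotated start, were matched for 63 of the 88 members. A C at the annotated start followed by at least 4 pyrimidines was present in 13 of the 63 (20.6%) and in 3.01% of the 27025 genes with a window. For most members the tract could therefore not be read at the annotated start. Whether their mRNAs begin elsewhere was not tested. The windows below run from 30 bases before the start to 15 bases from it, 5' to 3' on the gene's strand, with the tract in capitals; they are shown for the member with the second highest mean level (Rpl35), for the member phosphorylated by S6 kinases (Rps6) and for 4 others whose values follow. The final line, with no capitals, is the window of Rps27l, the paralogue of Rps27.
Rpl35, chr2:39005117-39005161, minus strand: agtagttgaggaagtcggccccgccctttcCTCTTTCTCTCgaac
Rps6, chr4:86857353-86857397, minus strand: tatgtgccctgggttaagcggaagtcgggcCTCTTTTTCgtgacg
Rps15a, chr7:118116133-118116177, minus strand: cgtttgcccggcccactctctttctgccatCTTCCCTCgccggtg
Rplp2, chr7:141447621-141447665, plus strand: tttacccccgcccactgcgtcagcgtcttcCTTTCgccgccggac
Rpl15, chr14:18270972-18271016, minus strand: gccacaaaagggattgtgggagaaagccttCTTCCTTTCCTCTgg
Rps27, chr3:90213634-90213678, minus strand: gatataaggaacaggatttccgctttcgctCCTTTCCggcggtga
Rps27l, chr9:66946056-66946100, plus strand: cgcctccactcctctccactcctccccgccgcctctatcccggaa
The 7 other members with the tract were Rpl14, Rpl28, Rpl35a, Rpl38, Rps10, Rps18 and Rps21. None of the windows of the paralogues Rpl3l, Rpl7l1, Rpl22l1, Rpl39l and Rps27l had it at the annotated start, which says only that these letters do not stand at that position. Among 69 mitochondrial ribosomal protein genes with a window, 0 had it. In the list of translation factors and other TOP mRNAs described below, 2 of 16 genes with a window had it (12.5%). The letters CCGGAAGT, on either strand and anywhere in the 300-base window, were present in 12 of the 63 members (19.0%) and in 4.31% of all genes. The mitochondrial ribosomal protein genes had them in 12 of 69 (17.4%) and the ribosome biogenesis genes in 9 of 33 (27.3%). The 2 patterns were counted separately, and Rpl35, Rps6 and Rps18 had both.

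Ribosomal protein transcripts made up 6.17%, 1.09% and 5.02% of all counts in naive replicates 1, 2 and 3 and 6.35%, 6.53%, 5.92% and 7.28% in allograft replicates 1 to 4. Exact 95% binomial intervals, which cover counting error only, were narrow: that of allograft replicate 4 ran from 7.27% to 7.29%. The allograft range overlapped naive replicate 1, and the library labelled naive replicate 2 lay far below all others. The naive mean of 4.09% ± 2.66 (SD, n = 3) compares with an allograft mean of 6.52% ± 0.570 (SD, n = 4), a ratio of 1.59 that fell to 1.17 without naive replicate 2. Naive replicates 1 and 3 averaged 5.14 times the share of naive replicate 2, and 3.89 times with the mitochondrially encoded counts left out of the total. In a bulk library, fewer cells of a type and less RNA of these genes per cell cannot be told apart. The part of the other cell types' markers and of the mitochondrial counts in this low share was not tested.

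**Figure D1:**
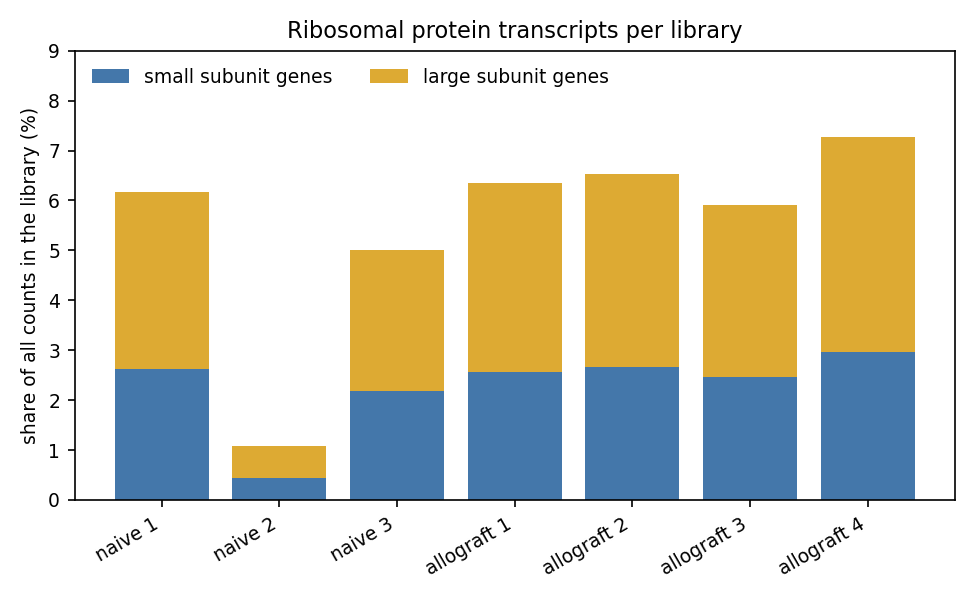
Share of all counts (%) assigned to large subunit (yellow) and small subunit (blue) ribosomal protein genes, as stacked bars, 1 bar per library. Naive replicate 2 reaches 1.09%, and the other 6 libraries lie between 5.02% and 7.28%.

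Of the 88 genes, 85 passed the filter on low counts. The other 3 were Rpl3l, Rpl10l and Rps12l1. In the edgeR quasi-likelihood fit over all genes, 6 of 17015 genes passed an adjusted p of 0.05 (0.0353%), and 0 of the 85 members did, with a lowest adjusted p of 0.471 for Rpl39l. At an unadjusted p under 0.05, 1 member was higher in allografts (Rpl39l, which passed the filter only through that group), where 6.41% of all genes were, and 0 were lower, where 3.86% of all genes were. The fitted log2 fold change, allograft over naive, was above 0 for 81 of 85 members and for 49.4% of all genes tested. Its median was 0.58 in the members against -0.01 for all genes tested, and the members ran from -0.93 (Rpl29) to 4.41 (Rpl39l). The median standard error of a member was 0.50.

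Without naive replicate 2 the member median no longer stood above that of all genes. Of 18037 genes, 560 passed the adjusted threshold (3.10%), again with 0 of 85 members and a lowest adjusted p of 0.0960, for Rpl29. The median member was at 0.20 and the median of all genes at 0.23. Values above 0 were found for 64 of the 85 members and for 58.7% of all genes, and 78 of the 85 members lay within 0.5 of 0. The share of all genes within 0.5 of 0 was not counted. The median standard error fell to 0.22. At an unadjusted p under 0.05, Rpl17 and Rpl35 were higher (15.6% of all genes were) and Rpl29 was lower (4.67% of all genes were). DESeq2 on the same 6 libraries called Rpl29 lower (adjusted p = 0.0118) and Rpl39l higher (adjusted p = 0.0383), 2 of 85 members where it called 15.9% of all genes. The filter kept Rpl39l only through the allografts, so its call is given as a description. On all 7 libraries DESeq2 called 0 members and 5.95% of all genes. When naive replicate 1 was left out instead, edgeR gave 16 of 86 members higher and 0 lower at an unadjusted p under 0.05, where 10.5% and 7.11% of all genes were.

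**Figure D2:**
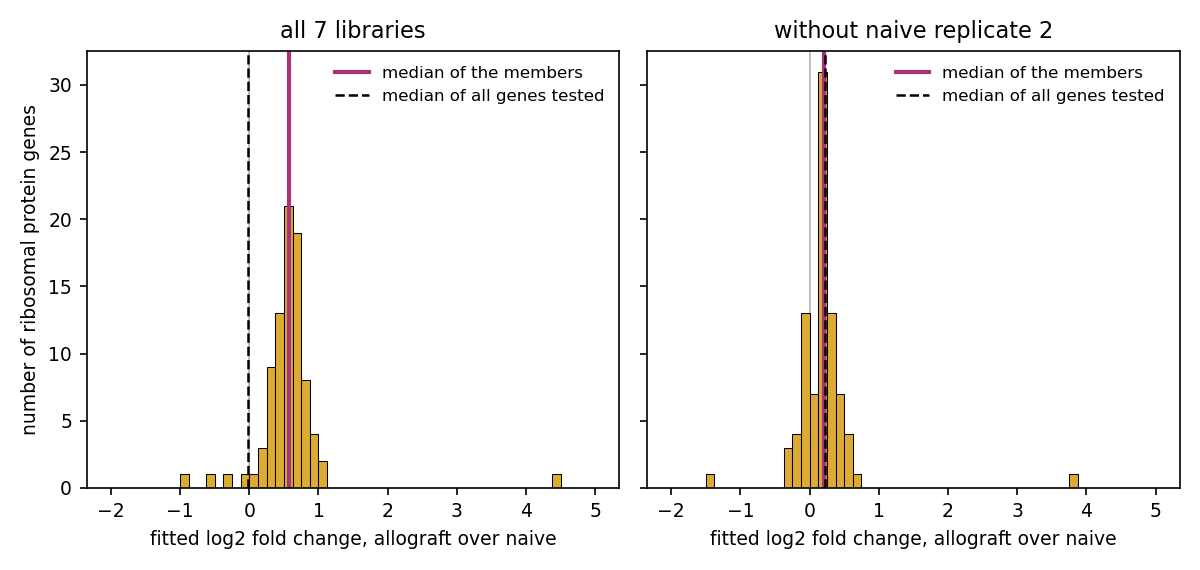
Number of ribosomal protein genes (y axis) by fitted log2 fold change, allograft over naive (x axis), with all 7 libraries (left) and without naive replicate 2 (right); solid and dashed lines mark the medians of the 85 members and of all genes tested. On the left the members' median is 0.58 and the gene median -0.01, on the right the lines stand at 0.20 and 0.23.

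Allograft values lay above every naive value in CPM for 14 of the 85 members, 10 of the large and 4 of the small subunit, where 12.5% of all tested genes did so, and below every naive value for 0, where 2.15% did. Without naive replicate 2 the counts were 15 higher (21.6% of all genes) and 1 lower (7.49%). Rpl39l, which passed the filter only through the allografts, was among the higher members with and without that library.

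Among large subunit genes, the highest levels per transcript length, as deposited in FPKM, which scale reads to transcript length and depth (mean of 7 libraries), were those of Rplp1 (2008), Rpl35 (1688) and Rpl32 (1072), and the lowest with counts in every library were those of Rpl7l1 (21.5), Rpl22 (51.5) and Rpl22l1 (73.8). Rplp0, Rplp1 and Rplp2 encode the stalk that recruits the translation factors which hydrolyse GTP. Rplp1 was at 1112, 250.3 and 998 CPM in naive replicates 1, 2 and 3 and at 1260.1, 1463, 1144 and 1803 CPM in the allografts, with no overlap between the groups. Its log2 fold change was 0.76 (SE 0.47, edgeR adjusted p = 0.701), and 0.38 (SE 0.23, adjusted p = 0.400) without naive replicate 2. Rplp0, the anchor of the stalk, was at 2447, 378 and 1259.7 CPM in naive and 2273, 2185, 2214 and 2474 CPM in allograft libraries. Naive replicate 1 reached the allograft range, and naive replicate 3 stood between the other naive libraries. Rplp2 was at 557, 113 and 423 CPM in naive and 523, 584, 464 and 792 CPM in allograft libraries, and the groups overlapped.

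Rpl35, a protein near the exit of the peptide tunnel, was at 2422, 461 and 1705 CPM in naive libraries and at 3321, 3163, 2671 and 3083 CPM in the allografts. The groups did not overlap with or without naive replicate 2. Its log2 fold change was 0.91 (SE 0.51, edgeR adjusted p = 0.648), and 0.53 (SE 0.21, adjusted p = 0.240) without that library. Rpl17, which also lines the tunnel exit, was at 569, 97.4 and 471 CPM against 715, 859, 663 and 982 CPM, again without overlap. It gave 1.01 (SE 0.50, edgeR adjusted p = 0.584) and, without naive replicate 2, 0.59 (SE 0.23, adjusted p = 0.238). Rpl26, another protein of the tunnel exit, was at 482, 187 and 471 CPM against 733, 568, 612 and 904 CPM. Its naive replicate 2 value was 2.55 times below the mean of naive replicates 1 and 3, a smaller drop than that of the median member (5.12). Rpl32 was at 1333, 147 and 936 CPM in naive and 1538, 1435, 1343 and 1542 CPM in allograft libraries. The gap between naive replicate 1 and the lowest allograft was narrow for Rpl32.

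Rpl10a and Rpl41 were also among the 5 large subunit members with the smallest p. Rpl10a, of the movable L1 stalk, was at 505, 98.2 and 280.0 CPM in naive and 601, 451, 616 and 736 CPM in allograft libraries. Rpl41, the shortest ribosomal protein, was at 481, 115 and 274 CPM against 505, 579, 455 and 619 CPM. In both genes naive replicate 1 fell inside the allograft range and naive replicate 3 below it. Rpl5 and Rpl11, which bring 5S ribosomal RNA into the subunit and can bind the p53 regulator Mdm2, are listed here for that role, and were named after their values were seen. Rpl5 was at 1313, 169 and 1401 CPM in naive and 1096, 1346, 1338 and 1537 CPM in allograft libraries, and its log2 fold change without naive replicate 2 was -0.08. Rpl11 was at 359, 84.3 and 232 CPM against 350.1, 324, 297 and 473 CPM. Each of them overlapped between groups.

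Rpl29, which encodes a small basic protein of the large subunit surface, had the lowest fitted value of all members. Its values were 509, 32.0 and 273 CPM in naive replicates 1, 2 and 3 and 124, 227, 113 and 123 CPM in the allografts. Naive replicates 1 and 3 lay above all 4 allografts, and naive replicate 2 lay below them. The log2 fold change was -0.93 (SE 0.69, edgeR adjusted p = 0.752) with all libraries and -1.46 (SE 0.37, adjusted p = 0.0960) without naive replicate 2. Naive replicate 2 was 12.2 times below the mean of the other naive libraries, the widest gap of any member with counts in every library.

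In the small subunit, Rps3a1 (1229.8) and Rps15 (927) were among the 3 genes of highest mean FPKM. Rps15, which contacts the decoding site, was at 599, 148 and 555 CPM in naive libraries and at 815, 868, 687 and 1000.2 CPM in the allografts. The groups did not overlap, and the log2 fold change was 0.86 (SE 0.43, edgeR adjusted p = 0.589), or 0.50 (SE 0.21, adjusted p = 0.250) without naive replicate 2. Rps3a1 was at 1608, 211 and 1604 CPM in naive and 1466, 1531, 1479 and 1722 CPM in allograft libraries. Its naive replicates 1 and 3 sat inside the allograft range, and its log2 fold change changed from 0.38 to -0.10 without naive replicate 2 (SE 0.58 and 0.16).

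Rps12 and Rps15a were also among the 5 small subunit members of smallest p, with edgeR adjusted p of 0.727 and 0.677. Rps12 was at 259, 32.2 and 242 CPM against 262, 377, 245 and 498 CPM, and Rps15a at 473, 73.7 and 299 CPM against 452, 539, 468 and 671 CPM. Both overlapped between groups through naive replicate 1, and allograft replicate 4 was the highest library for each. Rps6, the substrate of the S6 kinases, was at 1314, 215 and 1325 CPM in naive and 1285, 1198, 1297 and 1339 CPM in allograft libraries. Leaving aside naive replicate 2, the 6 libraries of Rps6 spanned only 1198 to 1339 CPM, and its log2 fold change was -0.09 (SE 0.16).

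Rpsa, which is also known as the laminin receptor precursor, varied most among the allografts in absolute terms. It was at 1845, 163 and 1636 CPM in naive and 1792, 2469, 2046 and 3082 CPM in allograft libraries, with a mean of 2347 ± 564 CPM (SD, n = 4) in the latter. The groups overlapped at naive replicate 1 and allograft replicate 1. Its log2 fold change of 0.90 (SE 0.69, edgeR adjusted p = 0.760) became 0.38 (SE 0.25, adjusted p = 0.441) without naive replicate 2, where Rpsa was 10.7 times below the mean of the other naive libraries. The lowest small subunit members by mean FPKM were Rps4l (18.1), Rps3a3 (19.1) and Rps28 (48.1). Rps28 was at 135, 23.3 and 81.3 CPM against 105, 106, 77.0 and 133 CPM, and the groups overlapped.

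Because the summed level differed so widely, each gene was also expressed as its share of the summed ribosomal protein counts of its library. In 82 of the 84 members with at least 10 counts in every library, naive replicate 2 had the lowest CPM, and the exceptions were Rps27l and Rps4l. The gap between the mean of naive replicates 1 and 3 and naive replicate 2 had a median of 5.12-fold and exceeded 3-fold in 79 of the 84. Within a library the log2 FPKM of these members had an SD of 1.33 to 1.46, and the mean FPKM covered a 111-fold range. The 10 highest genes held 37.3% of the summed member FPKM and the 20 highest held 56.4%.

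The order of the genes was shared between libraries. Pearson's r of log2 FPKM across the 84 genes, which are not independent replicates and share each library's depth, was 0.982 to 0.992 in the 6 pairs of allografts. It was 0.953 between naive replicates 1 and 3, 0.948 to 0.978 in the 8 pairs of these with an allograft, and 0.837 to 0.898 in the 6 pairs that include naive replicate 2. On the share scale, allograft values lay above every naive value for Rpl12, Rpl17 and Rpl39l, 3 of 85 members, where 4.90% of all genes divided the same way did. They lay below for Rpl7l1, Rpl15, Rpl27, Rps3 and Rps29, 5 of 85, where 8.03% did. Member shares have a fixed total in each library, whereas other genes divided by that sum can move together, so these rates are not alike. Rpl39l passed the filter only through the allografts. Rpl15, whose tract is shown above, was at 458, 89.4 and 417 CPM in naive and 453, 373, 422 and 314 CPM in allograft libraries, so its share was lower although its CPM overlapped. Without naive replicate 2 these counts were 6 higher (18.6% of all genes) and 12 lower (10.1%). The added higher genes included Rpl35 and Rps15, and the added lower genes were Rpl9, Rpl29, Rps3a1, Rps3a3, Rps7, Rps13 and Rps23.

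**Figure D3:**
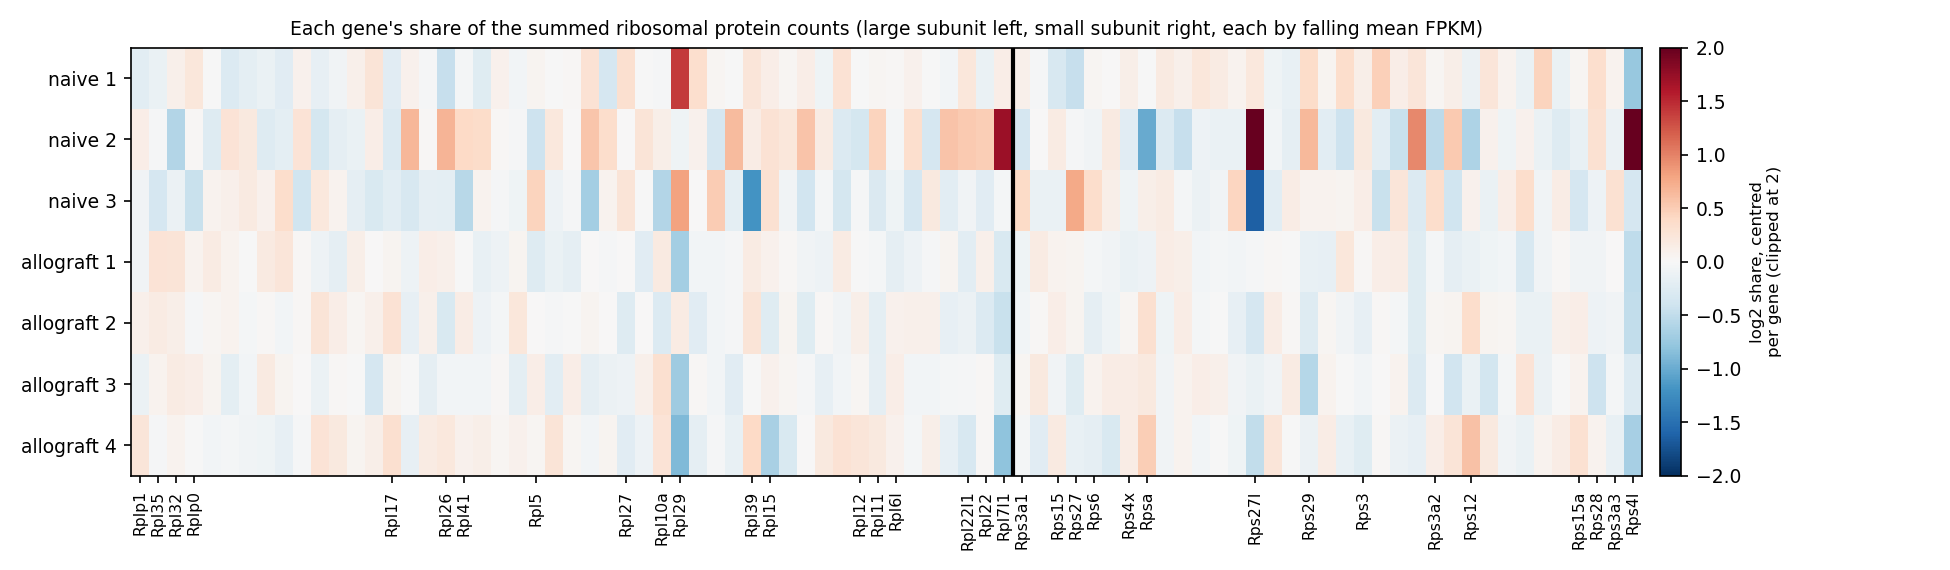
Log2 share of each gene (columns) in the summed ribosomal protein counts of each library (rows), centred on the gene's mean over the 7 libraries, for the 84 members with at least 10 counts in every library, of which some are labelled; red is above and blue below the mean, with colours clipped at 2. Rps27l, Rps4l and Rpl7l1 stand out in naive replicate 2, Rpl29 in naive replicates 1 and 3, and the 4 allografts are alike (r of 0.982 to 0.992).

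The balance between subunits was measured as the ratio of summed large to summed small subunit FPKM. It was 1.475, 1.471 and 1.378 in naive libraries and 1.606, 1.605, 1.529 and 1.614 in the allografts, so the groups did not overlap and naive replicate 2 was not apart from naive replicate 1. The means were 1.44 ± 0.0553 (SD, n = 3) and 1.59 ± 0.0396 (SD, n = 4). Without the 3 highest large subunit genes the ratios were 1.117, 1.120 and 1.045 against 1.167, 1.166, 1.128 and 1.177, a narrower gap but still no overlap. As a ratio of median FPKM the groups overlapped, at 0.776, 0.804 and 0.777 in naive and 0.691 to 0.817 in allograft libraries. As a ratio of summed counts they overlapped through naive replicate 2, at 1.354, 1.484 and 1.293 against 1.409 to 1.483.

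Paralogues and copies of ribosomal protein genes differed in how closely their counts followed the parent gene. Rpl6l, Rps3a2 and Rps3a3 are processed pseudogenes, retrotransposed copies of the mRNA. Their transcripts were 98.7%, 99.5% and 99.0% identical to the coding sequence or transcript of Rpl6 and Rps3a1, with uninterrupted identical stretches of 354, 317 and 215 bases. Their counts were a near constant percentage of the parent's, 12.1% to 13.6% for Rpl6l, 9.62% to 12.5% for Rps3a2 and 1.21% to 1.50% for Rps3a3, and naive replicate 2 lay within or close to the range of the others. How reads that match both a copy and its parent were assigned is not given, so the values of such copies are uncertain. Rps12l1 was 100% identical to Rps12 over 384 bases but had 27 counts, all in naive replicate 3, so its counts did not follow those of Rps12. Beside the members, 274 annotated pseudogenes of them took 0.422%, 0.0728% and 0.330% of counts in naive and 0.422% to 0.546% in allograft libraries.

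Rps27l encodes a p53-inducible paralogue of the zinc-finger protein of Rps27. The coding sequences of the paralogues, without stop codons and with the differing bases in capitals, are shown because they differ at 60 of 252 positions, with no identical run over 11 bases, and because their ratio varied more than that of any other pair with counts in every library.
Rps27, chr3:90212522-90213651, minus strand: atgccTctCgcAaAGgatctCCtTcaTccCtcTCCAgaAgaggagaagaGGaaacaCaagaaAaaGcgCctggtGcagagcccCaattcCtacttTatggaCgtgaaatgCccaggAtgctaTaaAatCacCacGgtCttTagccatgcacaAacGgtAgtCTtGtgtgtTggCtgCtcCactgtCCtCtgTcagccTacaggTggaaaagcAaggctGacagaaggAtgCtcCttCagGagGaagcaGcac
Rps27l, chr9:66946086-66949516, plus strand: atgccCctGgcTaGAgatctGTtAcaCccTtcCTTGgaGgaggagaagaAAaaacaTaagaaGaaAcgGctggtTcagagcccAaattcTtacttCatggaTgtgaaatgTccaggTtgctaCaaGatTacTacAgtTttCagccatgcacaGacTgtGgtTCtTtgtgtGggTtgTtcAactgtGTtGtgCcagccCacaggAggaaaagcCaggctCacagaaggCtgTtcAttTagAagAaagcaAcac
Coordinates are those of the whole gene in GENCODE M21. Rps27 was at 659, 158 and 1254 CPM in naive libraries and at 967, 1001, 740.0 and 964 CPM in the allografts. Rps27l was at 436, 358 and 99.1 CPM in naive and 383, 317, 331 and 318 CPM in allograft libraries. Rps27l counts were therefore 66.3%, 227% and 7.90% of the Rps27 counts in the 3 naive libraries and 31.6% to 44.8% in the allografts, a 28.7-fold range that lay wholly among the naive libraries. Naive replicates 1 and 3 stood on opposite sides of the allograft range. Their summed ILC2 markers were close to those of the allografts, but single markers could differ. Arg1 was at 1586 and 167 CPM in these libraries against 761 to 995 CPM in the allografts. Kit was at 21.1 and 424 CPM against 73.0 to 103 CPM. The log2 fold change of Rps27l was -0.08 (SE 0.53, edgeR adjusted p = 0.987), and 0.31 (SE 0.53) without naive replicate 2.

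Rpl39l is a paralogue of the tunnel protein Rpl39 known mainly from testis. Its coding sequence differs from that of Rpl39 at 23 of 153 positions, in capitals below, with a longest identical run of 38 bases.
Rpl39, chrX:37082520-37085402, minus strand: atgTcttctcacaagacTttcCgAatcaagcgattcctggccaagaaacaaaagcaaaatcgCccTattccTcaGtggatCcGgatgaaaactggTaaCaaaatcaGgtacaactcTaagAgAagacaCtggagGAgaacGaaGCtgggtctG
Rpl39l, chr16:10170226-10174911, plus strand: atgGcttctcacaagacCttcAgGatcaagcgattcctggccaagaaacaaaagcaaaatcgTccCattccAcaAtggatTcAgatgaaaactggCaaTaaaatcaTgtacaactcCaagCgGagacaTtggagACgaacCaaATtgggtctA
Rpl39l had 12, 0 and 0 counts in naive replicates 1, 2 and 3 and 49, 46, 68 and 75 counts in the allografts, or 1.69 ± 0.631 CPM (SD, n = 4) in the latter. A count of 0 allows up to 3 counts, which is 0.0659 CPM in naive replicate 2 and 0.0688 CPM in naive replicate 3. The gene passed the low-count filter only through the allografts, where it is high, so that it had to differ, and its lack of overlap and fitted values are given as a description. The log2 fold change was 4.41 (SE 1.84, edgeR unadjusted p = 0.0456, adjusted p = 0.471), and 3.83 (SE 1.70, adjusted p = 0.265) without naive replicate 2. Rpl39 itself was at 261, 42.9 and 78.0 CPM in naive and 253, 279, 209.9 and 345 CPM in allograft libraries, so Rpl39l stayed below 1% of its parent's counts in every library, with a highest value of 0.793%.

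Of the remaining paralogues, Rpl22l1 overlapped between the groups, while Rpl7l1 as a share of its parent, and Rps4l once naive replicate 2 was left out, did not. Rpl22 and Rpl22l1 encode paralogous large subunit proteins, the former known for its role in lymphocyte development. Rpl22l1 was at 231, 50.3 and 153 CPM in naive and 176, 192, 186 and 186 CPM in allograft libraries, and Rpl22 was at 183, 49.6 and 139 CPM against 221, 175, 196 and 241 CPM. The counts of Rpl22l1 were 126%, 101% and 110.3% of those of Rpl22 in naive and 77.4% to 109.5% in allograft libraries, and the ranges overlapped. Rpl7l1, a nucleolar relative of Rpl7, was at 119, 62.2 and 85.6 CPM in naive and 90.6, 84.6, 88.1 and 72.9 CPM in allograft libraries, a fall of only 1.64-fold in naive replicate 2. Its counts were 13.2%, 38.5% and 11.9% of those of Rpl7 in naive and 6.21% to 11.3% in allograft libraries, with no overlap and a narrow gap between naive replicate 3 and allograft replicate 3. Rps4l, a processed copy of the X-linked Rps4x with 79.9% identity, was at 14.1, 34.7 and 15.4 CPM in naive and 17.3 to 18.9 CPM in allograft libraries, and had the highest ratio of naive replicate 2 to the other naive libraries of all members with counts in every library. Rpl3l, the paralogue that replaces Rpl3 in striated muscle, had 0, 167 and 0 counts in naive and 6, 0, 31 and 0 in allograft libraries. In naive replicate 2, 2 of 8 heart muscle markers were detected, with a sum of 2.00 CPM; their part in this value was not tested. Rpl10l, a testis paralogue of Rpl10, had 0 counts in every library, which allows at most 0.103 CPM in the shallowest.

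**Figure D4:**
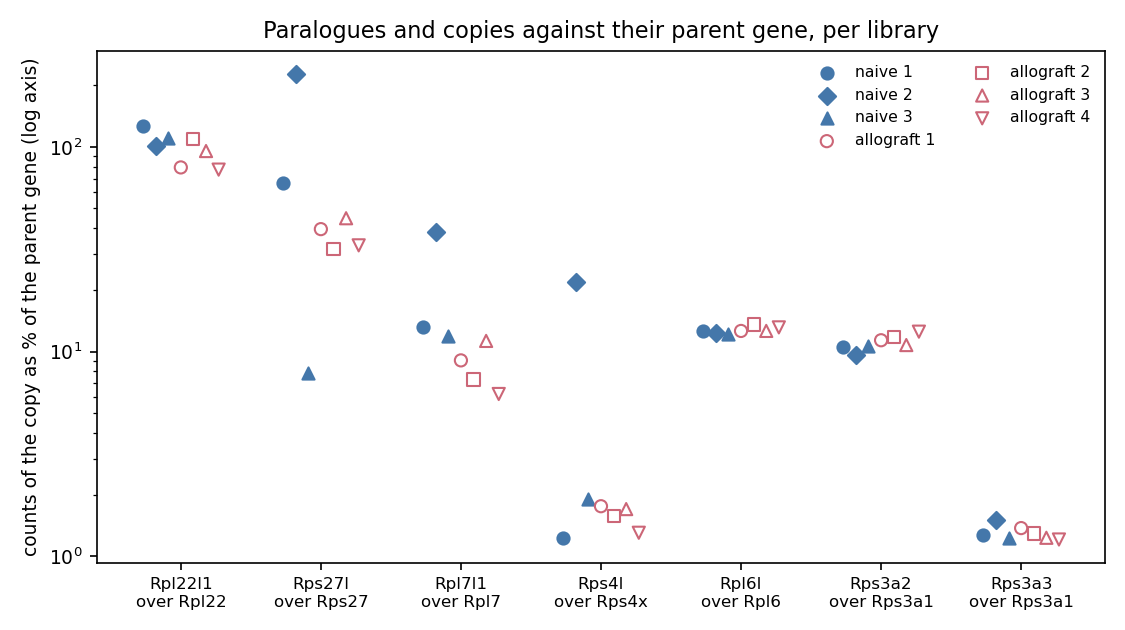
Counts of 7 paralogues or copies as a percentage of the counts of their parent gene (log axis), 1 point per library, filled for naive and open for allograft. Rpl6l, Rps3a2 and Rps3a3 form tight groups, whereas Rps27l runs from 7.90% to 227% and Rps4l reaches 21.9% in naive replicate 2.

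The other genes of the translation machinery were set beside the members, with 0 genes called by edgeR in either direction in each of 5 lists. At an unadjusted p under 0.05 the first 3 lists held 0 genes, where 10.3% of all genes passed in either direction. DESeq2 called 5 genes over the 5 lists, and 5.95% of all genes. Ribosomal proteins and partners outside the symbol rule had a median log2 fold change of 0.47 over 6 genes, and 0.14 without naive replicate 2. Fau, which encodes a ubiquitin-like protein fused to a small subunit protein, was at 403, 151 and 475 CPM in naive and 484, 535, 459 and 564 CPM in allograft libraries, and the groups overlapped. The 22 translation factors and other TOP mRNAs had a median of 0.43, and 0.10 without naive replicate 2. Their sum was 5.04 times lower in naive replicate 2 than in the mean of the other naive libraries, close to the 5.14 of the members. Eif3h and Eif3k, subunits of an initiation factor that binds the small subunit, had the smallest p of this list. Eif3h was at 361, 81.0 and 91.7 CPM against 397 to 444 CPM (log2 fold change 1.12, edgeR adjusted p = 0.514). Eif3k was at 285, 132 and 142 CPM against 314 to 397 CPM (0.72, edgeR adjusted p = 0.517). Without naive replicate 2 the fold changes were 0.85 (edgeR adjusted p = 0.378) and 0.66 (edgeR adjusted p = 0.289). The 38 ribosome biogenesis genes had a median of 0.33, and 0.15 without naive replicate 2. Their sum was 2.91 times lower in that library. Mybbp1a and Nolc1, nucleolar proteins of ribosomal RNA synthesis, had the smallest p of this list, with edgeR adjusted p of 0.514 and 0.570. The median of all genes was -0.01 with all libraries. Without naive replicate 2 it was 0.23, above the medians of these lists.

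Genes that control translation differed among themselves in naive replicate 2, which had the lowest naive value for 10 of 19 and the highest for 5. Together they summed to 766, 684 and 884 CPM in naive and 1004 to 1094 CPM in allograft libraries. Their median log2 fold change was 0.03, with 3 of 19 genes higher at an edgeR unadjusted p under 0.05, against 6.41% of all genes. Without naive replicate 2 their median was 0.15, against 0.23 for all genes. In that fit 3 of 19 were again higher, against 15.6% of all genes. Rheb, an activator of mTOR, gave 254 of the 684 CPM in naive replicate 2, and without it the other 18 summed to 430.1 CPM there. Larp1, which binds the TOP tract shown above, was at 29.7, 13.1 and 54.5 CPM in naive libraries and at 97.1, 125, 90.2 and 134 CPM in the allografts. The groups did not overlap, but the difference did not pass the threshold over all genes (log2 fold change 1.66, SE 0.44, edgeR adjusted p = 0.216). Without naive replicate 2 it was 1.35 (adjusted p = 0.106), and DESeq2 on all libraries called it (adjusted p = 0.0158). Rps6kb2, a kinase of Rps6, was at 83.4, 24.1 and 33.2 CPM against 143, 154, 115 and 114 CPM (1.36, SE 0.40, edgeR adjusted p = 0.293, and 0.0394 with DESeq2). Its log2 fold change without naive replicate 2 was 1.14 (edgeR adjusted p = 0.203).

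Mitochondrial ribosomal proteins, which serve a separate ribosome inside the organelle, differed from the cytoplasmic genes in where they were low. Summed over 83 genes they reached 8145, 6681 and 3857 CPM in the naive libraries and 5764 to 6726 CPM in the allografts. Symbols marked as pseudogenes, such as Mrps36-ps3, were kept in this list, unlike in the members. The lowest library was naive replicate 3, and naive replicate 2 lay 1.11 times above the mean of the other naive libraries. Over the 82 genes that passed the filter, the median log2 fold change stood at -0.29, or at 0.02 once naive replicate 2 was left out. At an unadjusted p under 0.05, 1 was higher and 10 were lower in allografts, against 6.41% and 3.86% of all genes. With naive replicate 2 left out, 2 were higher and 6 lower, against 15.6% and 4.67%. Mrpl50, a large subunit protein of this ribosome, was at 73.2, 48.6 and 50.4 CPM against 31.7, 31.0, 26.6 and 28.6 CPM (log2 fold change -1.16, SE 0.29, edgeR adjusted p = 0.194, and 6.6e-05 with DESeq2). Mrpl55 was at 53.8, 83.6 and 69.8 CPM against 37.4 to 44.0 CPM (-1.06, SE 0.35, edgeR adjusted p = 0.341). In both genes all 3 naive libraries lay above all 4 allografts. Without naive replicate 2 the fold changes were -1.11 (edgeR adjusted p = 0.0915) and -0.67 (adjusted p = 0.237).

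**Figure D5:**
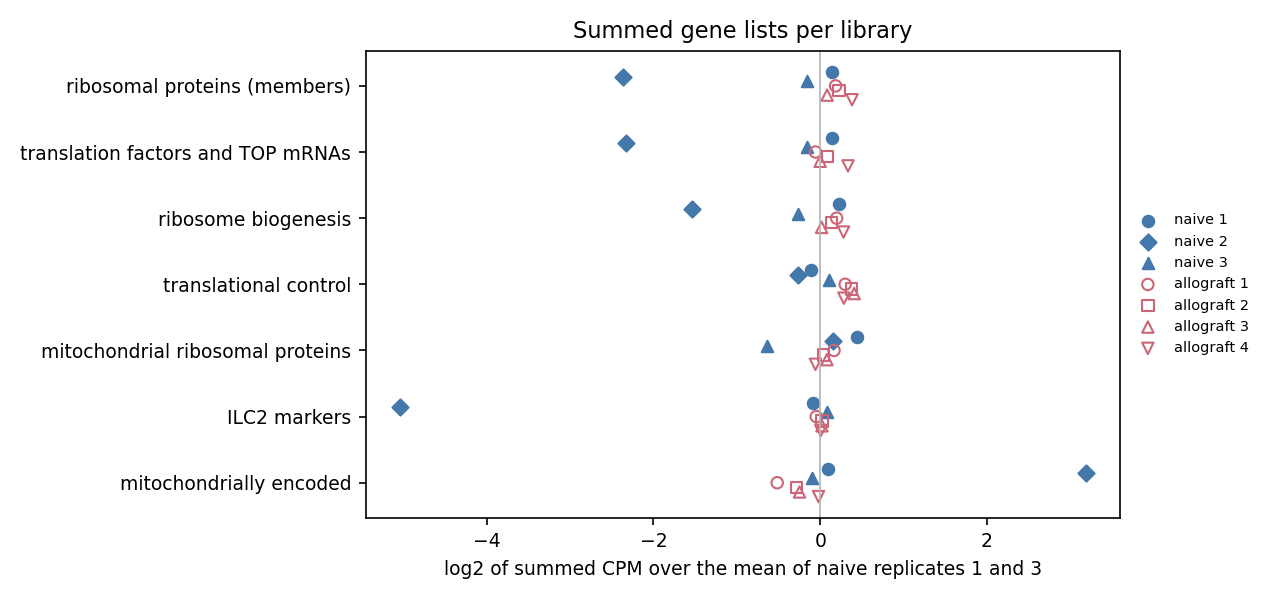
Log2 of the summed CPM of each gene list relative to the mean of naive replicates 1 and 3, 1 point per library, filled for naive and open for allograft. The members and the translation factor and TOP mRNA list lie furthest down in naive replicate 2 among the translation lists (5.14 and 5.04 times), ILC2 markers are 32.9 times lower there, and mitochondrial ribosomal protein genes are not low.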

How the data were processed

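Counts and FPKM per gene were deposited by the authors in a table for each unit. The submitters' processing notes name FastQC 0.11.5, STAR 2.5.3a, StringTie 1.3.1c, DESeq2 1.16.1 and genome build mm10, with no role or order; the counter, its strand setting and its treatment of reads that map to several genes are not given in the sources used here. RNA extraction and full-length amplification kits are named in the labels' protocols. Counts without molecular identifiers are not independent molecules.

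Raw counts of all genes were tested with the quasi-likelihood test of edgeR 4.0.16 (R 4.3.3, TMM factors, filterByExpr, Benjamini-Hochberg adjustment at 0.05), with 3 naive and 4 allograft libraries and no covariate. Standard errors are the fold change over the root of the F statistic. CPM are counts over library totals of 29107326 to 53044907. Levels between genes were compared with the deposited FPKM. Alternatives used DESeq2 1.42.0 and limma 3.58.1 on log2(FPKM + 1) or log2(FPKM + 0.1), other scalings and filters, a replicate block, pseudogene counts added to their parent, and each library left out in turn. The edgeR and limma scripts were tested on simulated data. No column of per-sample values was left unassigned (0). Coding sequences came from the GENCODE M21 transcripts and were aligned globally, and promoters came from RefSeq. For Rpl6l, Rps3a2, Rps3a3, Rps12l1 and Rps4l, without an annotated coding sequence, the transcript was aligned locally. Their identities cover only the aligned stretch.

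Members, gene lists and marker lists were chosen with earlier results of these data known. Named genes were, per subunit, the 5 of smallest p, the 3 highest and 3 lowest in mean FPKM, the 3 non-overlapping genes of largest change, the stalk genes, Rpsa, Rps6 and the paralogues with parents, and the 2 of smallest p in each other list; others are named as chosen after their values were seen or as part of a count. Some genes that this rule selects are not reported here.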

Additional observations from a re-analysis of the deposited data

Results flagged for a closer look

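Among 45 values examined in the 4 allografts, 2 had a single library set far from the other 3, and chance alone gives 2.25. Rps27 was at 739.95 CPM in allograft replicate 3 against 964 to 1001 CPM in the other allografts. The ratio of summed large to small subunit FPKM was 1.5295 in the same library against 1.605 to 1.614 in the others.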

How the results depend on the processing

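The member median stayed above 0 under every alternative run, from 0.13 (DESeq2 without naive replicate 2) to 0.93 (without naive replicate 1). The median of all genes moved too, and was 0.18 and 0.04 in these runs. Without naive replicate 2, the member median less that of all genes was -0.04 (DESeq2), -0.03 (edgeR) and -0.02 (edgeR, library totals only). In the other runs this difference ran from 0.13 (replicate block) to 0.90 (without naive replicate 1). In every run 0 members passed the threshold, except DESeq2 without naive replicate 2, which called 2. This fit was chosen after seeing the data. The log2 ratio of the summed share was 0.67 with all libraries and 1.10, 0.22 and 0.85 when naive replicate 1, 2 or 3 was left out. Over all genes the edgeR count of 6 (5 higher, 1 lower) became 1012 with DESeq2 (633 higher, 379 lower), 144 and 168 with limma on log2(FPKM + 1) and log2(FPKM + 0.1), and 28 with limma and no filter. Leaving out a library gave 0 to 560 genes: 107, 560 and 7 for naive replicates 1, 2 and 3 in turn, and 0 for each allograft. Without naive replicate 2, library totals as the only scaling gave 594 and DESeq2 2859, both chosen after seeing the data. In the other translation lists DESeq2 called 5 genes, and 8 without naive replicate 2; Larp1, Mrpl50 and Rps6kb2 passed with DESeq2, and Larp1, Mrpl50 and Rpl39l with DESeq2 without naive replicate 2. The cause of these differences was not tested. Scaling moved the median of all genes from -0.01 to -0.20 with DESeq2 size factors and to 0.17 with library totals only, and the member median to 0.44 and 0.66. The replicate numbers gave no sign of pairing: same-numbered naive and allograft libraries had correlations of their deviations of 0.02, -0.02 and 0.04. Over all pairs of a naive and an allograft library they ran from -0.09 to 0.08. With so few libraries, and naive replicate 2 set apart, this check cannot decide whether libraries were paired. With a replicate block, edgeR called 0 genes (252 at an unadjusted p under 0.05), and the member median was 0.69. Depth limits only Rpl39l, Rpl3l, Rpl10l and Rps12l1 among the members.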
